A study of Homo sapiens with 4 samples.

Results

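The genes described here are the inhibitors of DNA binding ID1, ID2, ID3 and ID4 and 6 genes of bone morphogenetic protein (BMP) signalling, BMP2, BMP4, BMPR1A, BMPR2, SMAD6 and SMAD7. They are 10 of the 57820 genes in the expression table and were taken by gene name. The choice was made with the comparison of CEBPB knockdown and control already known, so their values in that comparison are given as a description and carry no test. A549 is an established human lung adenocarcinoma cell line, described by the series as NRF2-activated (NRF2 is a transcription factor of the oxidative stress response). The study asks which transcripts in these cells depend on CEBPB, a transcription factor of the C/EBP family. The knockdown group held 1 library of cells transfected with CEBPB siRNA-1 and 1 library of cells transfected with CEBPB siRNA-2. The control group held 2 libraries of cells transfected with control siRNA. All cultures had their medium replaced 24 h after transfection and were harvested 24 h later. Total RNA was read as 76-base single-end, strand-specific libraries, and expression is given as FPKM, fragments per kilobase of transcript, corrected for library size. Nothing in the labels states that the controls are separate cultures, so p-values measure only the spread between these libraries. That spread may be technical, and within the knockdown group it also holds any difference between the siRNAs.

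BMPs are secreted ligands that bring type I and type II receptor kinases together on the cell surface. The type I receptor phosphorylates SMAD1, SMAD5 and SMAD9, which enter the nucleus with SMAD4 and switch on target genes. ID genes are among the best known of these targets, and SMAD6 and SMAD7 are induced as inhibitors that limit the signal. ID proteins have a helix-loop-helix domain without a DNA-binding region, and hold E proteins such as TCF3 in inactive pairs. In the developing lung, BMP4 is known for its role at the tips of the branching airways.

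CEBPB (ENSG00000172216.4), the target of the siRNAs, was at 12.9 FPKM with siRNA-1 and 10.97 FPKM with siRNA-2, against 78.7 and 80.9 FPKM in the controls. That left 16.2% and 13.7% of the control mean. The libraries summed to 494066 and 502651 FPKM in the knockdowns, against 513055 and 528606 in the controls. In bulk RNA, fewer cells of a kind and less RNA per cell cannot be told apart. Of 5 epithelial markers, 4 averaged at least 1 FPKM, among them the keratins KRT8 and KRT18. The 5 summed to 1820 and 2834 FPKM in the knockdowns, against 3597 and 5055 FPKM in the controls, nearly all of it KRT8 and KRT18. CDH1, the epithelial cadherin, was at 22.8 and 14.0 FPKM in the knockdowns, against 20.2 and 32.1 FPKM in the controls. The claudin CLDN4 was at 1.34 and 0.231 FPKM in the knockdowns, against 0.104 and 0.296 FPKM in the controls. The part of these markers in the results was not tested. Of 5 alveolar lineage markers, AGER was at 0.677 and 2.07 FPKM in the knockdowns, against 2.14 and 2.09 FPKM in the controls. SFTPC was at 0.914 FPKM in control 1 and was listed at 0 elsewhere. NKX2-1, SFTPA1 and SFTPB were listed at 0 in every library. The leukocyte markers PTPRC and CD3E and the 3 endothelial markers measured were also listed at 0. The 4 leukocyte markers used summed to 3.11 and 2.73 FPKM in the knockdowns, against 4.10 and 4.10 FPKM in the controls. The 6 fibroblast markers summed to 4.48 and 2.30 FPKM in the knockdowns, against 0.734 and 0.592 FPKM in the controls, nearly all of it COL1A1, and the part of these in the results was not tested.

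All 4 ID genes were lower in both knockdown libraries than in both controls. ID1 (ENSG00000125968.7) was at 23.0 FPKM with siRNA-1 and 77.8 FPKM with siRNA-2, against 200.8 and 260.3 FPKM in the controls. Both knockdown values lay below both controls, at 9.96% and 33.7% of the control mean. The difference on the log2(FPKM + 1) scale was -2.40 ± 0.54 (SE, n = 2 libraries per group), and the authors' deposited table gives a log2 fold change of -2.25 ± 0.43 (SE). ID3 (ENSG00000117318.8) was at 31.4 FPKM with siRNA-1 and 79.8 FPKM with siRNA-2, against 138 and 180.4 FPKM in the controls. The groups did not overlap, and the log2 difference was -1.64 ± 0.43 (SE, n = 2 per group). ID2 (ENSG00000115738.5), which in GENCODE 29 overlaps the antisense gene ID2-AS1, was at 24.5 FPKM with siRNA-1 and 37.3 FPKM with siRNA-2, against 56.0 and 67.9 FPKM in the controls. The knockdown levels were 39.5% and 60.2% of the control mean, and the log2 difference was -1.01 ± 0.25 (SE, n = 2 per group). ID2-AS1 itself was at 1.78 and 2.49 FPKM in the knockdowns, against 3.20 and 2.15 FPKM in the controls.

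ID4 (ENSG00000172201.6) was the least abundant of the family, at 0.174 FPKM with siRNA-1 and 0.852 FPKM with siRNA-2, against 2.26 and 4.77 FPKM in the controls. The controls differed from each other by a ratio of 2.11, yet both were above the knockdown libraries. Its log2(FPKM + 1) difference of -1.56 ± 0.39 (SE, n = 2 per group) understates the change of so low a gene, and with a pseudocount of 0.1 it was -2.73. ID4 passed the filter of a mean of at least 1 FPKM only through its control libraries, and rests on a mean of 45.6 normalized counts in the authors' deposited table, where ID1 has 1401. The antisense gene AL022068.1, which overlaps ID4 in GENCODE 29, was at 0.324 FPKM or less in every library.

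**Figure D1:**
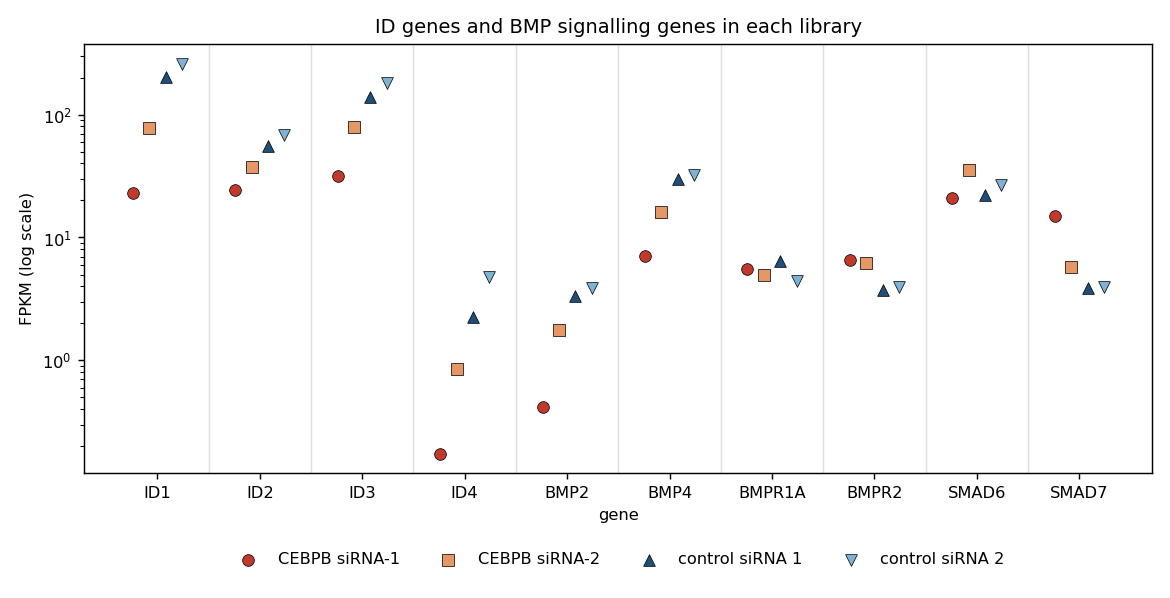
FPKM of the 10 genes in each library, on a log axis, with 1 point per library. The points of ID1, ID2, ID3, ID4, BMP2 and BMP4 with either CEBPB siRNA lie below both controls, those of BMPR2 and SMAD7 lie above both, and those of BMPR1A and SMAD6 overlap the controls.

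The make-up of the family also differed. The 4 genes together summed to 79.0 FPKM with siRNA-1 and 195.7 FPKM with siRNA-2, against 397 and 513 FPKM in the controls. That was 17.3% and 43.0% of the control mean. ID1 supplied 29.1% of the sum with siRNA-1 and 39.7% with siRNA-2, against 50.5% and 50.7% in the controls. ID3 supplied 39.7% and 40.8% in the knockdowns, against 34.8% and 35.1% in the controls. The share of ID2 was 31.0% and 19.0% in the knockdowns, against 14.1% and 13.2% in the controls. The ratio of ID1 to ID3 stood at 0.731 in the siRNA-1 library and 0.975 in the siRNA-2 library, against 1.45 and 1.44 in the controls, so ID1 was below ID3 in the knockdowns and above it in the controls. Among all 57820 genes ranked by FPKM, ID1 held rank 3581 with siRNA-1 and 977 with siRNA-2, against 301 and 247 in the controls.

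**Figure D2:**
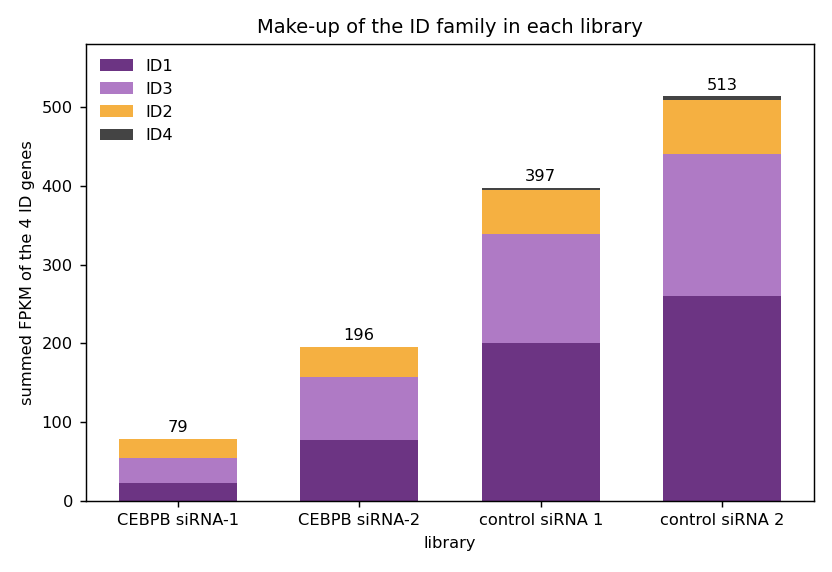
Stacked FPKM of ID1, ID3, ID2 and ID4 in each library, with the sum above each bar. The sums are 79 and 196 in the knockdowns, against 397 and 513 in the controls, and the ID1 segment shrinks more than that of ID2.

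The promoters of ID1 and ID3, the family members with the highest levels, are shown as the 250 bases before the transcription start, from RefSeq's GRCh38.p14 promoter table. The authors' build is hg19, per the submitters' processing notes, so these coordinates belong to the RefSeq build alone. Capitals in ID1 (20:31605039-31605288, plus strand) mark GGAGCC, a variant of the GC-rich element bound by SMAD proteins, and TATAAA, the TATA box. Capitals in ID3 (1:23559502-23559751, minus strand) mark GGAGCC and CAGAC, a short SMAD element. A match may stand on either strand, so GGAGCC also appears as its reverse complement.
ID1: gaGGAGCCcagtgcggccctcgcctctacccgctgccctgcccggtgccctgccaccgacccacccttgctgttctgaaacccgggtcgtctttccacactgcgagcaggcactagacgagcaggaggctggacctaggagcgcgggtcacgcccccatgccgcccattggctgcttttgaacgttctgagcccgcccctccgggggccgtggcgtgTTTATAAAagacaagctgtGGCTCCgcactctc
ID3: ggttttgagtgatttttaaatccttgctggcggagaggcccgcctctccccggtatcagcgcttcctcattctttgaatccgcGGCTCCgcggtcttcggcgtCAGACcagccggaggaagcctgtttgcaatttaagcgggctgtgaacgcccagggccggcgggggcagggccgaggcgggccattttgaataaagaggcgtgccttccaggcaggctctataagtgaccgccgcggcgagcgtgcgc
In ID1, GGAGCC began 248 and 14 bases before the start and TATAAA 33 and 31 bases before it, these last matches being overlapping ones on opposite strands. In ID3, GGAGCC began 167 and CAGAC 147 bases before the start. Of all 35116 promoter windows in the table, 36.0% hold GGAGCC, 45.3% hold CAGAC and 11.5% hold TATAAA, so such matches are common. The C/EBP element TTGCNNAA, present in 10.5% of windows, was matched in neither of these windows. A match is a description of the letters and shows no binding.

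Both ligands were lower in the knockdowns. BMP4 (ENSG00000125378.11) was at 7.13 FPKM with siRNA-1 and 16.1 FPKM with siRNA-2, against 30.0 and 32.2 FPKM in the controls. The controls lay close together and both knockdown libraries were below them, at 22.9% and 51.6% of the control mean. The log2 difference was -1.45 ± 0.36 (SE, n = 2 per group). BMP2 (ENSG00000125845.6) was at 0.422 FPKM with siRNA-1 and 1.77 FPKM with siRNA-2, against 3.32 and 3.86 FPKM in the controls. Its groups did not overlap either, with a log2 difference of -1.21 ± 0.36 (SE, n = 2 per group) and of -1.90 with a pseudocount of 0.1.

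BMPR2 and BMPR1A, the receptors among the chosen genes, did not follow the ligands. BMPR2 (ENSG00000204217.8), the type II BMP receptor, was at 6.59 FPKM with siRNA-1 and 6.26 FPKM with siRNA-2, against 3.75 and 3.97 FPKM in the controls. The siRNA libraries were nearly equal and both were above the controls, with a log2 difference of 0.61 ± 0.19 (SE, n = 2 per group). BMPR1A (ENSG00000107779.7), a type I receptor, was at 5.53 FPKM with siRNA-1 and 4.93 FPKM with siRNA-2, against 6.47 and 4.45 FPKM in the controls. Both knockdown values lay between the controls, and the log2 difference of -0.03 ± 0.24 (SE, n = 2 per group) was smaller than the spread between controls. BMPR1A has related copies in the table, so its level is uncertain where reads are shared. BMPR1APS1 was at 1.81 to 2.66 FPKM and BMPR1APS2 at 3.82 to 4.35 FPKM across the libraries. These copies rest on means of 2.97 and 0.247 normalized counts in the authors' deposited table, where BMPR1A has 265.

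The inhibitory SMADs differed from each other. SMAD7 (ENSG00000101665.4), which blocks both BMP and TGF-beta receptors, stood at 15.04 FPKM with siRNA-1 and 5.77 FPKM with siRNA-2, against 3.89 and 3.93 FPKM in the controls. It was above the controls in both knockdown libraries, by far more with siRNA-1, and the log2 difference was 1.09 ± 0.41 (SE, n = 2 per group). SMAD6 (ENSG00000137834.10), which acts mainly on BMP signalling, was at 21.0 FPKM with siRNA-1 and 35.6 FPKM with siRNA-2, against 22.2 and 26.7 FPKM in the controls. The siRNA-2 value was above both controls, while the siRNA-1 value was below the lower control by less than the controls differed from each other. The log2 difference of the groups was 0.16 ± 0.28 (SE, n = 2 per group).

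SMAD6 had the only C/EBP match among the 13 windows of 9 genes in the promoter table. That table listed no window under BMP2, so BMP2 was not searched. Its promoter (15:66701986-66702235, plus strand, GRCh38.p14) is shown for that reason, with capitals on TTGCGCAA, a palindrome that fits TTGCNNAA, and on GTCTAGAC, a palindromic SMAD element.
SMAD6: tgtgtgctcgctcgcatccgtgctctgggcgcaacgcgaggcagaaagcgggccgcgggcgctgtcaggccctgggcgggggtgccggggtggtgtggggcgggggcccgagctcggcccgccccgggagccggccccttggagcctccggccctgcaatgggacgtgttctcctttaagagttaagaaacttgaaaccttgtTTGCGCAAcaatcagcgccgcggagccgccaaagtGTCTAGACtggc
TTGCGCAA began 47 and GTCTAGAC 12 bases before the start. TTGCGCAA was found in 0.151% and GTCTAGAC in 0.202% of all 35116 windows. The wider element TTGCNNAA was found in 10.5% of all windows and in 1 of the 13 here. The motifs were chosen after the levels were known, and SMAD6 is one of the 2 genes here whose groups overlapped. The GC-rich SMAD element GGCGCC, in 19.2% of windows, was matched in BMP4 and BMPR2. The E-box CANNTG, to which E proteins bind, was matched in 8 of the 13 windows, against 68.7% of all windows.

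**Figure D3:**
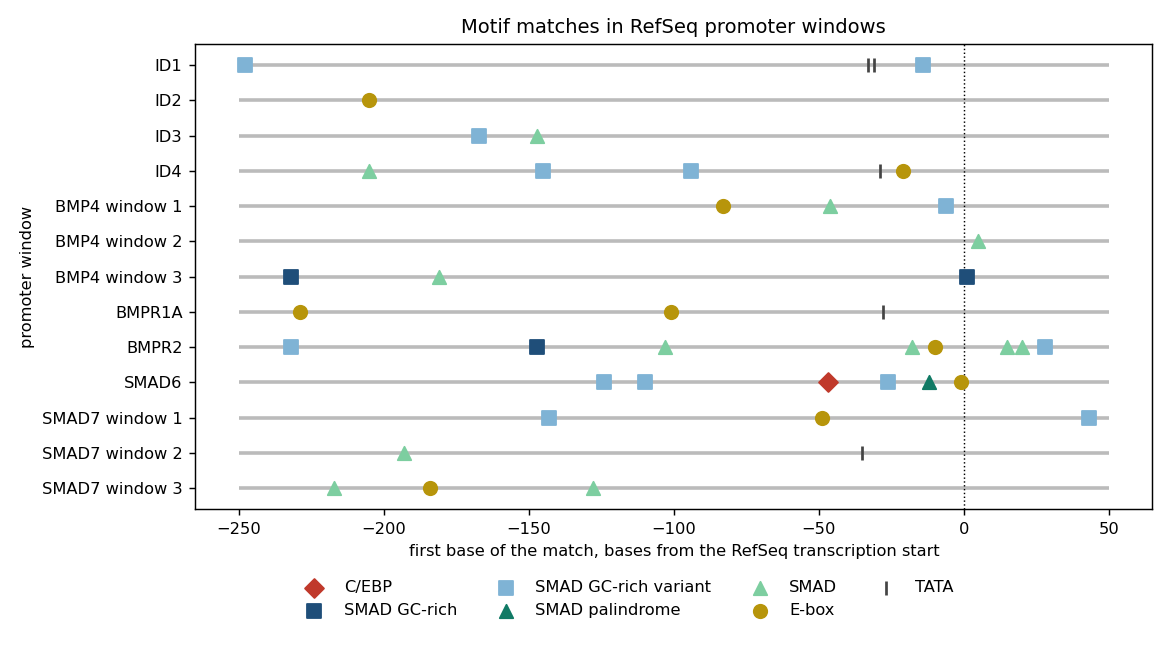
Motif matches in the 13 RefSeq promoter windows of 9 genes, by the distance of the first base from the transcription start (0 on the axis). Each grey line is 1 window from 250 bases before to 50 bases after the start. The only C/EBP match lies in SMAD6, 47 bases before the start.

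Counted together, 6 of the 10 genes had both knockdown libraries below both controls and 2 had both above. Over all 14068 genes tested, the share was 21.0% below and 23.5% above. The authors' deposited table calls ID1, ID2, ID3, ID4 and BMP4 lower at an adjusted p under 0.05, that is 5 of 10, and calls 0 of 10 higher. Of the 14675 genes with an adjusted p there, 1.42% were called lower and 2.71% higher. With limma on log2(FPKM + 1), a test that estimates the spread from these 4 libraries and from the other genes, 0 of the 10 passed an adjusted p of 0.05 and 8 had an unadjusted p under 0.05. Over all genes tested, limma called 0.235% (9 higher and 24 lower) and 12.2% had an unadjusted p under 0.05. Since the genes were chosen on this comparison, these counts describe the choice. The median log2 difference of the 10 genes was -1.11, beside 0.00103 over all genes tested.

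In the control libraries, ID1 was the most abundant of the 10, followed by ID3, ID2, BMP4 and SMAD6. Neighbours in that order did not overlap between the controls. BMPR1A came next at 4.45 and 6.47 FPKM, above BMPR2, SMAD7 and BMP2, all of which lay between 3.32 and 3.97 FPKM. BMPR2 overlapped SMAD7 and BMP2 over the controls, and ID4 overlapped all of these and BMPR1A. With siRNA-1 the order was ID3, ID2, ID1, SMAD6 and SMAD7, and with siRNA-2 it was ID3, ID1, ID2, SMAD6 and BMP4.

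The siRNAs were compared with each other in a limma fit with 3 groups. The genes were chosen on the comparison with the controls, but with the levels in these libraries known. With 1 library per siRNA, the errors and p-values compare these libraries and not the siRNAs in general. The fit takes its spread from the controls and the other genes, and treats the lone library of each siRNA as if it varied like the controls. No gene of the 10 passed (adjusted p from 0.0553 to 0.899), while 7 had an unadjusted p under 0.05. Over all genes, limma called 0.441%, and 22.4% had an unadjusted p under 0.05. ID1 was lower with siRNA-1 than with siRNA-2 by a log2 difference of -1.72 ± 0.22 (SE), with a limma adjusted p of 0.0553. The difference was -1.32 ± 0.22 for ID3, -1.07 ± 0.18 for BMP4 and 1.24 ± 0.22 for SMAD7 (SE), with limma adjusted p-values of 0.0730, 0.0722 and 0.0757. For SMAD6 it was -0.74 ± 0.20 (SE), with a limma adjusted p of 0.132. BMPR2 differed by 0.06 ± 0.23 (SE), less than its error.

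Relative to the control mean, the log2 deviation of ID1 came to -3.26 in the siRNA-1 library and -1.54 in the siRNA-2 library. That of ID3 was -2.30 and -0.98, that of BMP4 -1.98 and -0.91, and that of SMAD7 1.71 and 0.46. In 8 of the 10 genes siRNA-1 lay further from the control mean than siRNA-2, as it did in 64.6% of all genes tested. The spread of deviations over all genes tested was also wider with siRNA-1 (SD 0.66) than with siRNA-2 (SD 0.44). CEBPB itself was at 12.9 FPKM with siRNA-1 and 10.97 FPKM with siRNA-2, a log2 difference of 0.22 with 1 library per siRNA. The part of the CEBPB level in these deviations was not tested.

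Among 72 other genes of the BMP pathway, grouped by role from textbook knowledge, 39 averaged at least 1 FPKM and 12 were listed at 0 in every library. The authors' deposited table calls 4 higher and 2 lower of the 50 with an adjusted p, or 8.0% and 4.0%, beside 2.71% and 1.42% of all genes with one. Limma called 0 of the 39, where 5 higher and 5 lower had an unadjusted p under 0.05, beside 12.2% of all genes tested in either direction. Of the lower ones, ATOH8 passed the filter of a mean of at least 1 FPKM only through its control libraries. Without the siRNA-2 library limma called 7 higher and 4 lower of the 39, beside 870 higher and 894 lower of all 14068 genes. Knockdown libraries lay above both controls for 12 of the 39 and below both for 9, or 30.8% and 23.1%, against 23.5% and 21.0% of all genes tested. The list's median log2 difference was 0.05.

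BMP6, a further BMP ligand, fell in the authors' deposited table, with a log2 fold change of -2.09 and an adjusted p of 1.1e-06. It was at 1.93 FPKM with siRNA-1 and 2.26 FPKM with siRNA-2, against 8.43 and 9.59 FPKM in the controls. Unlike BMP4, it was at nearly the same level with either siRNA. Its limma log2 difference was -1.69 ± 0.20 (SE, n = 2 per group; adjusted p = 0.0745). BMP8B, the only other ligand of the list to reach a mean of 1 FPKM, was at 3.01 and 2.50 FPKM in the knockdowns, against 2.33 and 2.03 FPKM in the controls.

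None of the 5 further receptors, 5 co-receptors or 4 SMADs was called in the authors' deposited table. Limma, with all 4 libraries, tested 4, 2 and 3 of them and called none, but without the siRNA-2 library it called the receptors ACVR1 (adjusted p = 0.0289) and ACVR2B. The type I receptor BMPR1B was at 6.53 FPKM with siRNA-1 and 9.62 FPKM with siRNA-2, against 11.8 and 10.2 FPKM in the controls. ACVR1, another type I receptor, was at 11.9 FPKM with siRNA-1 and 5.30 FPKM with siRNA-2, against 5.00 and 4.21 FPKM in the controls. Both knockdown libraries were below both controls for BMPR1B and above both for ACVR1, as for 21.0% and 23.5% of all genes tested. The co-receptor NEO1 was at 31.1 and 25.9 FPKM in the knockdowns, against 22.5 and 18.3 FPKM in the controls. The co-receptor RGMB was at 6.94 and 7.01 FPKM, against 6.69 and 5.31 FPKM. ACVR2B, a type II receptor, was at 8.15 FPKM with siRNA-1 and 1.76 FPKM with siRNA-2, against 3.17 and 1.88 FPKM in the controls.

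Of the signal carriers, SMAD5 was at 8.48 and 9.14 FPKM in the knockdowns, against 9.24 and 7.79 FPKM in the controls. SMAD1 was at 4.59 FPKM with siRNA-1, below both controls, and at 7.88 FPKM with siRNA-2, above both, against 5.77 and 5.21 FPKM in the controls. Its limma difference of siRNA-1 minus siRNA-2 was -0.67 ± 0.23 (SE), which did not pass (adjusted p = 0.189). SMAD9, too low to be tested, was at 0.109 and 0.0751 FPKM in the knockdowns, against 0.168 and 0.250 FPKM in the controls. Their shared partner SMAD4 was at 8.39 and 6.78 FPKM in the knockdowns, against 9.26 and 7.68 FPKM in the controls.

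Of 16 secreted antagonists, which bind ligands outside the cell, 6 were tested. CRIM1, a membrane-tethered BMP-binding protein, rose in the authors' deposited table, with a log2 fold change of 1.11 and an adjusted p of 0.00195. It was at 86.0 FPKM with siRNA-1 and 59.7 FPKM with siRNA-2, against 35.9 and 32.8 FPKM in the controls. FSTL3, which binds activins and some BMPs, was at 130.5 and 57.6 FPKM in the knockdowns, against 50.2 and 45.8 FPKM in the controls. It was called neither in the authors' deposited table nor by limma with 2 groups, but limma called it higher in the fit of 3 groups (adjusted p = 0.0224) and without the siRNA-2 library (adjusted p = 0.00967).

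All 13 regulators inside the cell were tested, and the authors' deposited table calls SMURF2 higher and TOB1 lower. SMURF2, a ubiquitin ligase that acts on receptors and SMADs together with SMAD7, was at 38.1 FPKM with siRNA-1 and 10.4 FPKM with siRNA-2, against 6.69 and 5.52 FPKM in the controls. The log2 fold change in that table was 1.66 with an adjusted p of 0.00391. TOB1, an antiproliferative protein that binds SMADs, was at 12.8 FPKM with siRNA-1 and 25.0 FPKM with siRNA-2, against 46.2 and 49.9 FPKM in the controls. Its log2 fold change there was -1.37 with an adjusted p of 0.00143. FKBP1A, which holds type I receptors inactive, was at 281 and 302 FPKM in the knockdowns, against 222 and 219 FPKM in the controls, and was called neither there nor by limma.

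Other known BMP targets were low. Of 11 such genes 4 were tested and 0 were called in the authors' deposited table or by limma. MSX1 was at 3.50 and 2.54 FPKM in the knockdowns, against 1.62 and 1.82 FPKM in the controls. MSX2 was at 3.72 and 2.38 FPKM, against 4.59 and 3.92 FPKM. The other targets tested were GATA2, at 1.35 and 1.57 FPKM, against 2.36 and 3.09 FPKM, and ATOH8, given below. Both knockdown libraries were below both controls for MSX2, GATA2 and ATOH8, and above both for MSX1. Of all genes tested, 21.0% lay below and 23.5% above in this way. Among 6 partners of ID proteins, the transcription factors ETS1 and ETS2 rose in the authors' deposited table, by log2 fold changes of 1.42 and 1.83 with adjusted p-values of 0.000268 and 0.000276. ETS1 was at 43.3 and 24.2 FPKM in the knockdowns, against 10.7 and 12.1 FPKM in the controls. ETS2 was at 50.7 and 20.6 FPKM in the knockdowns, against 9.57 and 10.04 FPKM in the controls. The E protein gene TCF3 was at 30.9 and 51.7 FPKM in the knockdowns, against 33.0 and 40.6 FPKM in the controls, where the groups overlapped.

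**Figure D4:**
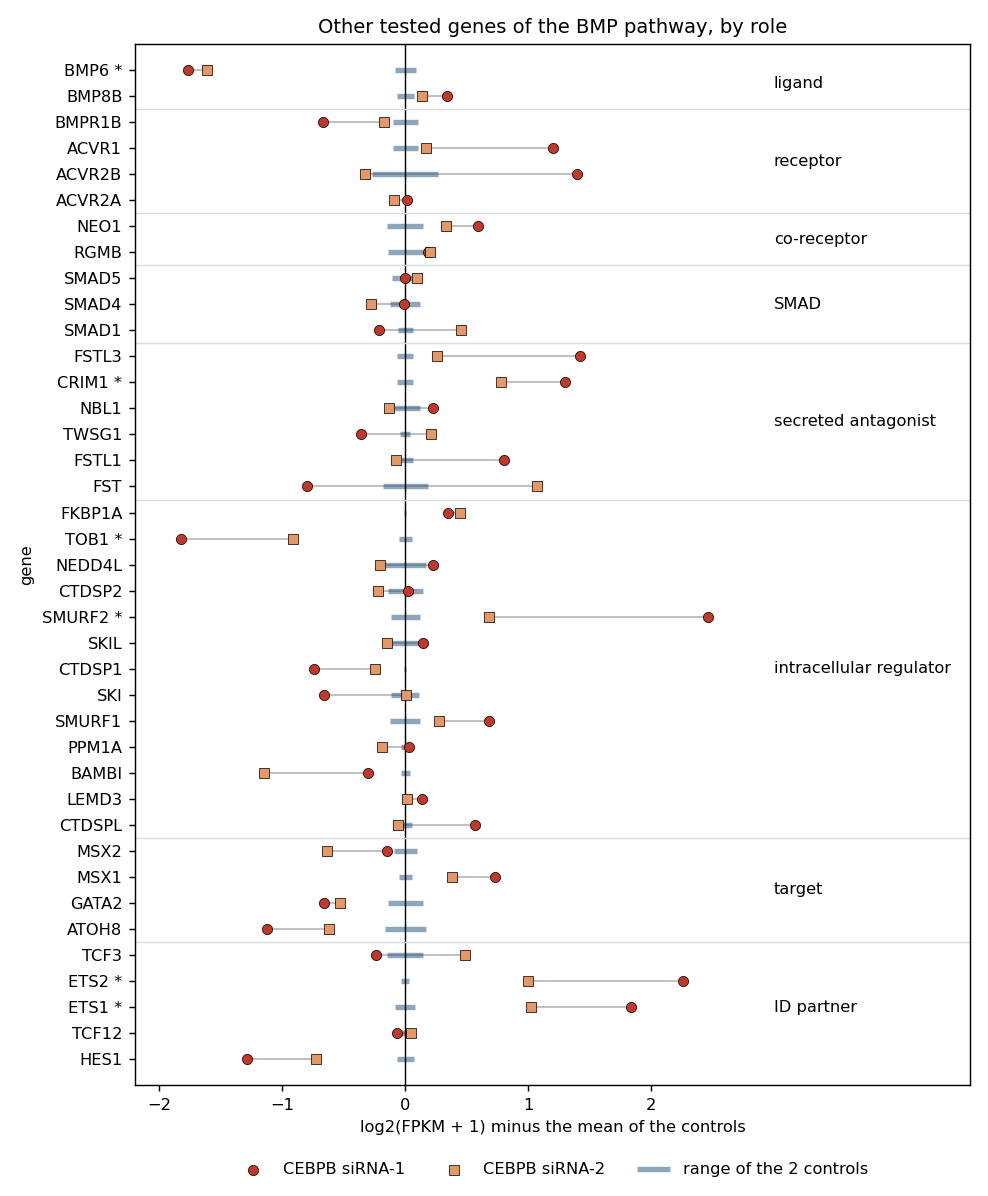
Difference from the control mean on the log2(FPKM + 1) scale for the 39 tested genes of the pathway list, grouped by role. Points are the CEBPB siRNA libraries, blue bars span the 2 controls, and a star marks the 6 genes called in the authors' deposited table. BMP6 and TOB1 lie to the left of the controls with either siRNA, and SMURF2, CRIM1, ETS1 and ETS2 to the right.

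The genes most like ID1, ID3 and BMP4 were found by the Euclidean distance between their deviations from the control mean on the log2(FPKM + 1) scale, over 4 libraries and among genes averaging at least 5 FPKM. Nearest to ID1 were PDK4 (distance 0.257), SLC23A2, STEAP1, DACT2 and H19. PDK4, a kinase that inhibits pyruvate dehydrogenase, was at 3.87 FPKM with siRNA-1 and 15.3 FPKM with siRNA-2, against 44.6 and 45.2 FPKM in the controls. Nearest to ID3 were INSL4 (distance 0.140), FAM84B, SLC45A4, TESC and DGCR6. Nearest to BMP4 were PON3 (distance 0.127), TOB1, APOH, SLC7A7 and CFD. PON3, a lactonase, was at 6.50 FPKM with siRNA-1 and 15.4 FPKM with siRNA-2, against 25.9 and 30.8 FPKM in the controls. DACT2, H19, DGCR6 and APOH averaged under 5 FPKM in the knockdowns, and passed the filter of 5 FPKM through their control libraries. None of the nearest genes was itself among the 10, and a likeness over 4 libraries is a description of these libraries.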

How the data were processed

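RNA from 4 libraries was analysed, 2 of CEBPB knockdown and 2 of control siRNA. Per the submitters' processing notes, the build was hg19 and the tools were DESeq2 1.26.0, HTSeq 0.13.5, StringTie 2.1.4 and STAR 2.7.0d, whose roles are not given in the sources used here. The deposited values per library were taken as FPKM: they are not whole, and their sums differ between libraries. The depth per library is not given; the authors' mean normalized counts (a signal column) sum to 8341083. Per the file headers, the authors also deposited a log2 fold change with its standard error, the Wald statistic as a score, and a p-value, raw and adjusted. Its direction, knockdown over control, was read from the sign against FPKM.

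For the comparison of groups, limma 3.58.1 under R 4.3.3, with its trend option, was run on log2(FPKM + 1) over the 14068 genes that averaged 1 FPKM or more, with Benjamini-Hochberg adjustment and 2 residual degrees of freedom. It was tested on simulated data. The siRNAs were compared in a fit of 3 groups with 1 residual degree of freedom. An exact permutation test (two-sided) of 1 value in this design cannot give less than p = 0.333. The genes and the pathway list were chosen with earlier results of these data known. Named are CEBPB, the 10 genes, pathway genes called in either table, the 2 most abundant pathway genes per role, and the 5 genes nearest in pattern to ID1, ID3 and BMP4. Genes outside that rule were named after their values were seen. Alternatives were another pseudocount, no filter, median-of-ratios and upper-quartile scaling, a replicate block, 1 library left out, and the fit of 3 groups.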

Additional observations from a re-analysis of the deposited data

Results flagged for a closer look

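SMAD6 was below both controls with siRNA-1, at 21.0 FPKM, and above both with siRNA-2, at 35.6 FPKM, against 22.2 and 26.7 FPKM in the controls. It was listed for a closer look because the libraries lay on opposite sides of the controls. The siRNA-1 value was below the lower control by less than the controls differed from each other, and there was 1 library per siRNA. The log2 difference of siRNA-1 minus siRNA-2 was -0.74 ± 0.20 (SE), which did not pass in limma (adjusted p = 0.132).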

How the results depend on the processing

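With either other scaling, 6 of the 10 genes had knockdown libraries below the controls and 2 above, as reported. The other alternatives could not lower these counts. Their median log2 difference ran from -1.49 (without the siRNA-2 library) to -0.72 (without the siRNA-1 library). The number called by limma depended on the fit: 0 as reported, 6 in the fit of 3 groups (ID1, ID2, ID3, BMP2, BMP4 and SMAD7), and 0 to 7 with 1 library left out. It was 7 without the siRNA-2 library, where ID4 was added. In the pathway list, limma called 5 higher and 3 lower in the fit of 3 groups, and 0 to 7 higher and 0 to 4 lower with 1 library left out, the most without the siRNA-2 library. Over all genes, limma called 538 higher and 433 lower in the fit of 3 groups, 0 in either direction with no filter (2438 at an unadjusted p under 0.05), and 0 to 870 higher and 0 to 894 lower with 1 library left out. The most came without the siRNA-2 library, and without the siRNA-1 library it was 28 and 44. Without control 1 or control 2 no gene passed in limma (736 and 685 at an unadjusted p under 0.05). A lone library is there assumed to vary like the other group. CEBPB kept a log2 difference of -2.75 to -2.54 over the alternatives, but lost its limma call without control 1 (adjusted p = 0.461), without control 2 (0.328) and with no filter (0.262).

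With the replicate number as a block, limma called 11 higher and 14 lower. Deviations of same-numbered libraries correlated at 0.0754 over the 14068 genes, and the labels do not say that numbers pair the libraries.

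Between the siRNAs, limma called 16 higher and 46 lower with siRNA-1, but 0 higher and 1 lower with a pseudocount of 0.1, 909 and 1006 with no filter, 85 and 78 with median-of-ratios scaling, and 81 and 81 with upper-quartile scaling. None of the 10 genes passed in any of these 4 fits, and their lowest adjusted p ran up to 0.0801. The cause of these changes was not tested. Of 330 recomputed values of single genes, 0 of those with a call changed sign; BMPR1A (-0.26 to 0.19), SMAD6 (-0.21 to 0.53), TCF3 (-0.24 to 0.49) and SMAD5 (-0.06 to 0.16), none of them called, took either sign. The depth per library is not given, and what it limits in low genes such as ID4 and BMP2 was not tested.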

Other observations

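Some pathway genes outside the naming rule were noted after their values were seen. HES1 is a transcriptional repressor downstream of NOTCH, and ID proteins can bind it. HES1 was at 2.13 FPKM with siRNA-1 and 3.65 FPKM with siRNA-2, against 6.31 and 7.05 FPKM in the controls. It was called neither in the authors' deposited table nor by limma with 2 groups, but limma called it lower in the fit of 3 groups and without the siRNA-2 library. BAMBI, a decoy receptor for BMP and TGF-beta, was at 9.04 and 4.59 FPKM in the knockdowns, against 11.1 and 11.7 FPKM in the controls, and was called neither in that table nor by limma. FST, which encodes the activin antagonist follistatin, was listed at 0 with siRNA-1 and was at 2.65 FPKM with siRNA-2, against 0.533 and 0.975 FPKM in the controls. ATOH8, a BMP target in other cell types, was at 0.292 and 0.826 FPKM in the knockdowns, against 1.501 and 2.16 FPKM in the controls. Only its control libraries brought ATOH8 past the filter.

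The control libraries differed from each other in these genes, in some of them by little. Of the 10, 9 were higher in control 2 than in control 1, as were 41.4% of all genes tested. The ratio of control 2 to control 1 was 2.11 for ID4, 1.30 for ID1, 1.30 for ID3 and 1.21 for ID2. For SMAD6 it was 1.20 and for BMP2 1.16. The ratio was only 1.07 for BMP4, 1.06 for BMPR2 and 1.01 for SMAD7. BMPR1A, at 0.687, was the exception. The summed FPKM was also higher in control 2, at 528606 against 513055 in control 1.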
